A study of Mus musculus with 2 samples.

Results

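The genes described here are Id1, Id2 and Id3, which encode inhibitor of DNA binding (ID) proteins, and Tcf3, Tcf4 and Tcf12, which encode E proteins. These 6 of the 32285 genes in the count tables were chosen because Id2 was higher in the lymphoid-primed cells of the IκBα KO library than in those of the WT library. That difference chose the list, so it is described below and nothing is read from it. The question behind each comparison was how the level of these genes differed between IκBα WT and IκBα KO fetal liver progenitors of the same cell class.

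E proteins are basic helix-loop-helix transcription factors that bind E-box DNA as dimers. They are known for driving lymphoid specification: E2A (Tcf3) and HEB (Tcf12) act in B- and T-cell development, and E2-2 (Tcf4) in plasmacytoid dendritic cells. ID proteins have the helix-loop-helix domain but lack the basic region, so an E protein paired with an ID protein does not bind DNA. Id1 and Id3 are textbook targets of BMP signalling, and Id2 is required by innate lymphoid cells, natural killer cells and several dendritic cell types.

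On the GRCm38 build Id2 lies on the minus strand of chromosome 12 at 25093799 to 25097140, Id1 on the plus strand of chromosome 2 at 152736251 to 152737410 and Id3 on the plus strand of chromosome 4 at 136143497 to 136145755. Tcf3 is on the minus strand of chromosome 10 at 80409514 to 80433647, Tcf4 on the plus strand of chromosome 18 at 69343356 to 69689079 and Tcf12 on the minus strand of chromosome 9 at 71842688 to 72111871. The Id genes are short and the E protein genes long.

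The data were 2 droplet-based single-cell RNA-seq libraries of LSK (lineage-negative, SCA1-positive, cKIT-positive) cells from the liver of E14.5 CD1 mouse embryos, CD1 being an outbred stock. The WT library pooled 2 embryos with intact Nfkbia, the gene of IκBα, an inhibitor of NF-κB. The IκBα KO library pooled 3 embryos of a germline knockout line, so every cell type of the embryo, niche cells included, lacked the gene. Titles of both samples speak of LT-HSCs, but the remaining labels say LSK, the term used here. Each genotype had 1 library, so differences could not be tested, and all intervals below are 95% counting intervals that cover neither cell-to-cell nor embryo-to-embryo differences.

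The WT library held 3458 kept cells with a median of 28065 UMIs (unique molecular identifiers, each marking 1 RNA molecule), and the KO library 4417 cells with a median of 19560. Nfkbia was at 13.6 CPM (counts of the gene scaled to a common total) over all kept WT cells and at 0.0707 CPM over all kept KO cells, as the labels say. The libraries also differed in sex: cells with Y-linked UMIs and no UMI of the X-linked gene Xist made up 0.116% of the WT and 17.4% of the KO cells. Such cells are called male below, and cells with Xist but no Y-linked UMIs female. The libraries shared 7 cell barcodes, 6 of them among kept cells, and the ratios of the 6 genes were the same without them in LT-HSC-like, lymphoid-primed and MPP3-like cells. Per the study's methods the lineage depletion left CD11b out, and small clusters of macrophage-like, endothelial-like and hepatocyte-like cells were present, so not every cell matched the LSK label. Haemoglobin genes took 6.33% of the UMIs of erythroid-primed cells in WT and 8.41% in KO, and 0.571% or less in the other progenitor classes.

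Cells were clustered with the 6 genes left out, and each cluster took its name from marker genes. The 4 classes of blood progenitors are compared first. LT-HSC-like cells (long-term haematopoietic stem cells) numbered 321 in WT and 303 in KO. The class named ST-HSC/MPP4-like, called lymphoid-primed here, held 157 and 195 cells. MPP3-like (neutrophil-primed) cells numbered 323 and 367, and MPP2/4-like (erythroid-primed) cells 1625 and 2189. The lymphoid-primed cluster carried Flt3, Il7r, Satb1 and Cd27 beside the B-lineage genes Ebf1 and Cd79a, while Dntt, another of its marker genes, had 0 UMIs there in both libraries. Its lymphoid-primed and B-cell marker lists stood almost equally far above the other clusters (mean log2 of 2.31 and 2.21), so the class included cells with a B-lineage programme.

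Levels are given as CPM of all UMIs of the class in a library. A UMI counts 1 transcript end whatever the transcript length, so CPM does not scale with transcript length. In such sums fewer cells that express a gene and less RNA per cell cannot be told apart, except where shares of cells are given.

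Tcf3 and Tcf12 were present at similar levels across the classes, Tcf4 and Id1 varied more, and Id2 and Id3 varied most, in WT from below 1 CPM to 205 and 503 CPM. Tcf3 ranged in WT from 59.6 CPM in hepatocyte-like to 113 CPM in erythroid-primed cells. The interval of the erythroid-primed class overlapped that of cluster 9, an unnamed cluster (113 CPM), and lymphoid-primed cells were next at 107 CPM. Tcf12 was the most even of the 6 genes: in WT its 10 class levels lay between 31.0 and 45.2 CPM, and each overlapped the next in the order. Tcf4 was highest in endothelial-like (151 CPM) and lymphoid-primed cells (124 CPM), whose intervals overlapped, and lowest in erythroid-primed cells at 23.1 CPM. Tcf4 was thus the leading E protein gene of lymphoid-primed cells, with 46.4% of the E protein UMIs in WT, and Tcf3 that of erythroid-primed cells, with 67.6%.

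Id3 was highest in endothelial-like cells, at 503 CPM in WT against 469 CPM in KO, followed by macrophage-like cells at 129 and 160 CPM. Id1 was also highest in endothelial-like cells (138 CPM in WT) and came next in MPP3-like cells (67.5 CPM), which overlapped macrophage-like and hepatocyte-like cells. Id2 was highest in hepatocyte-like (205 CPM) and endothelial-like cells (174 CPM), whose intervals overlapped, and then in macrophage-like cells (114 CPM). Among the progenitors, Id2 in WT was ordered MPP3-like (48.3 CPM), lymphoid-primed (32.0 CPM) and LT-HSC-like (10.6 CPM), with no overlap between neighbours. In KO the order of the first 2 was the other way round, with 75.9 CPM in lymphoid-primed and 31.2 CPM in MPP3-like cells. Erythroid-primed cells had almost none of Id2 (0.593 CPM in WT, 0.800 CPM in KO) or Id3 (0.802 and 0.762 CPM), and 90.1% of their few WT Id UMIs were Id1.

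**Figure D1:**
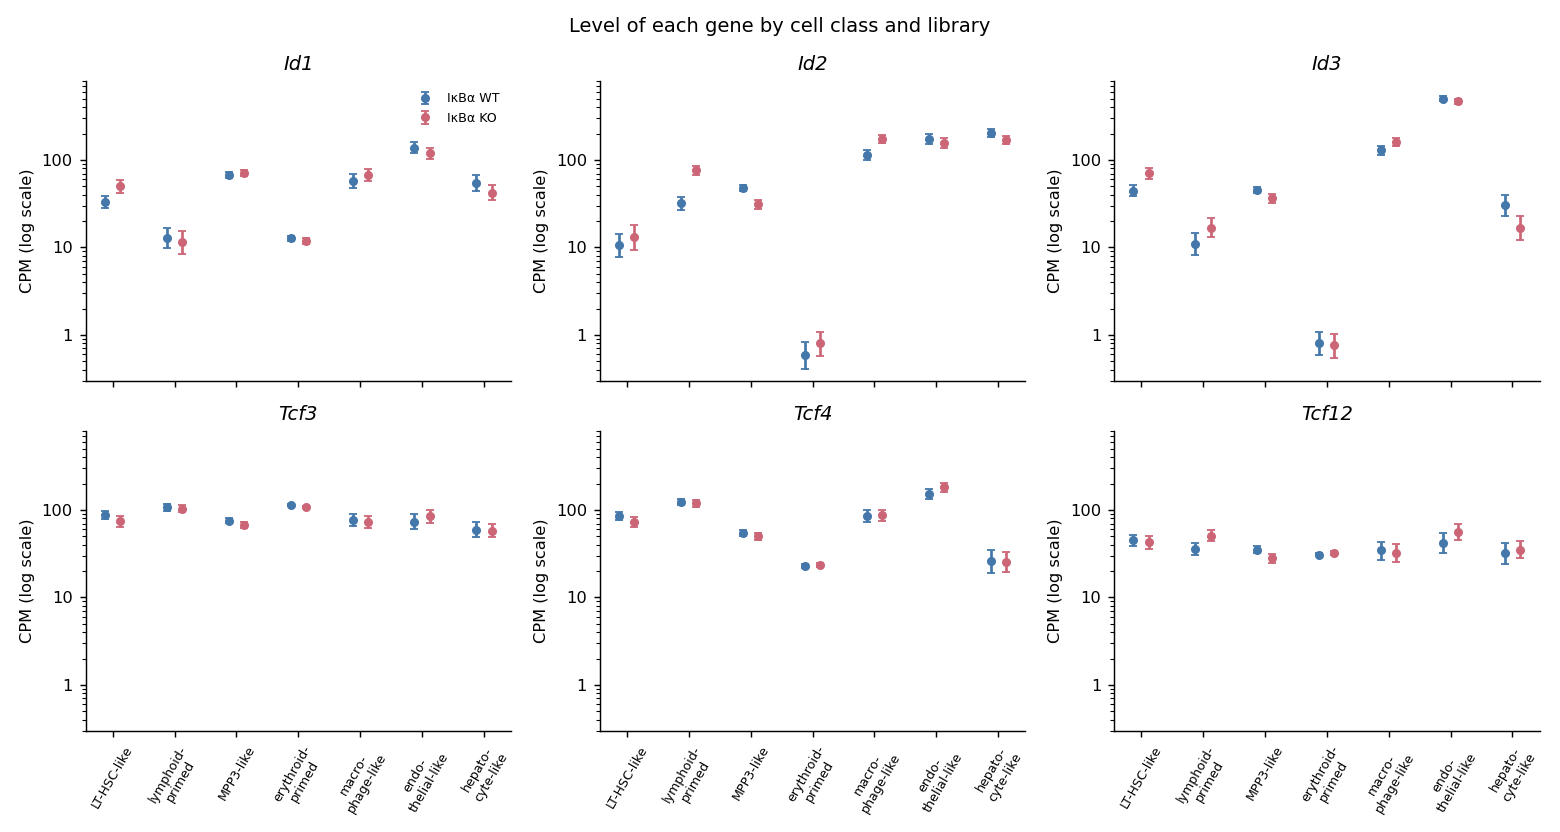
Level of each gene (CPM, log scale) in 7 named cell classes of the IκBα WT (blue) and IκBα KO (red) libraries, with bars for the 95% Poisson counting interval of 1 library each. The Id genes span from under 1 CPM in erythroid-primed cells to 503 CPM for Id3 in endothelial-like cells, whereas Tcf12 stays between 28.1 and 56.5 CPM in all classes shown.

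Members with a log2 ratio of 0.5 or more between the libraries were counted beside all genes. In lymphoid-primed cells all 6 had at least 100 UMIs over both libraries, and 2 were that far apart, both higher in KO (Id2, which chose the list, and Id3). Over all 6552 genes with as many UMIs, 3.83% were that far apart. In LT-HSC-like cells 5 of the 6 had 100 UMIs (Id2 had 84), and 2 of them, Id1 and Id3, were that much higher in KO, against 3.73% of all genes. In MPP3-like cells 1 of 6, Id2, was that much lower in KO, against 3.25%. In erythroid-primed cells 0 of 4 genes with 100 UMIs reached that ratio, against 2.58%, and over all kept cells 0 of 6, against 5.62%. The median log2 ratio of all genes lay between -0.02 and 0.02 in each of the classes.

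**Figure D2:**
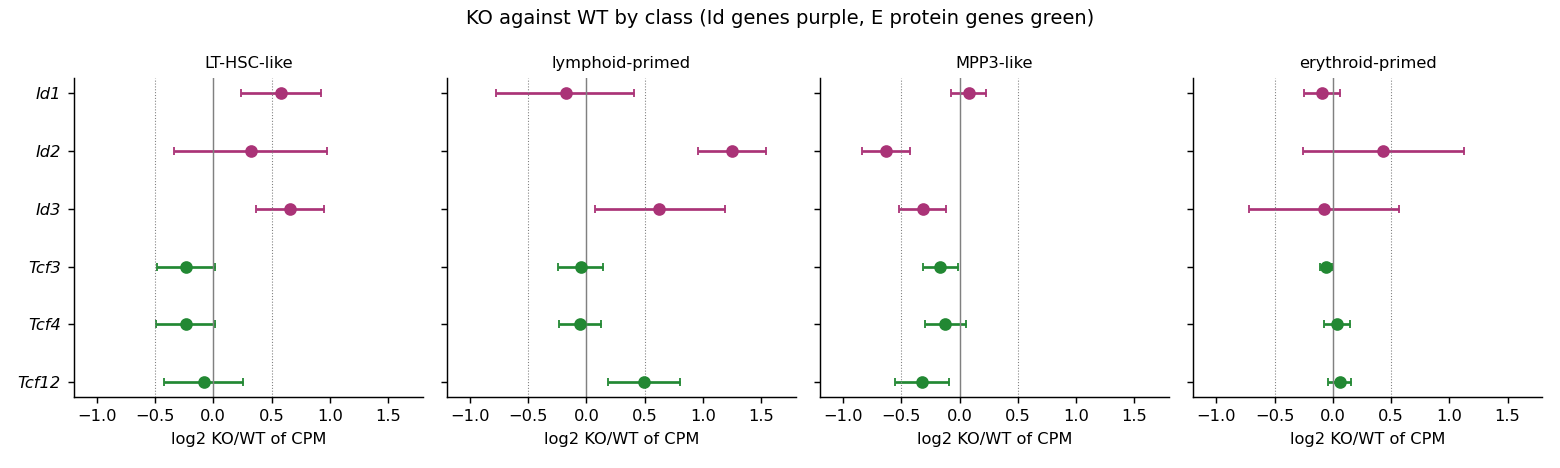
Log2 ratio of KO to WT CPM for each gene in the 4 progenitor classes, with 95% counting intervals. Dotted lines mark a log2 ratio of 0.5 in each direction. Id2 lies at 1.25 in lymphoid-primed and at -0.63 in MPP3-like cells, and the E protein genes lie within 0.5 of 0 in all 4 classes.

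In lymphoid-primed cells Id2 stood at 32.0 CPM in WT (27.0 to 37.7, 146 UMIs) and at 75.9 CPM in KO (67.5 to 85.2, 292 UMIs). KO was 2.37-fold higher, a log2 ratio of 1.25 (0.95 to 1.54), and only 3 of the 6552 genes had a higher ratio. This is the value that chose the genes. Where the class was instead defined by gates on marker UMIs per cell (153 WT and 134 KO cells), the log2 ratio of Id2 was 0.70.

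Id3 in the same cells had 50 UMIs in WT and 65 in KO, or 10.97 CPM (8.14 to 14.46) and 16.9 CPM (13.1 to 21.6). The log2 ratio was 0.62 (0.07 to 1.19). It rested on how the class was drawn: it was -0.0046 with clusters at resolution 1.0, 0.01 with a higher gene minimum per cell and -0.13 with the marker gates. Id1 was low in both libraries, at 12.9 and 11.4 CPM, with a log2 ratio of -0.18 (-0.77 to 0.41). Of the Id UMIs of the class, Id2 made up 57.3% in WT and 72.8% in KO.

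Among the E protein genes of lymphoid-primed cells, Tcf3 was at 107 CPM in WT against 104 CPM in KO, and Tcf4 at 124 and 120 CPM. Their log2 ratios were -0.05 (-0.24 to 0.15) and -0.06 (-0.24 to 0.12), so a difference was not detectable at this depth, and these intervals leave out log2 ratios below -0.24 and above 0.15. Tcf12 was at 36.2 CPM (30.9 to 42.2) in WT against 51.0 CPM (44.1 to 58.6) in KO, with no overlap of these intervals, at a log2 ratio of 0.49 (0.19 to 0.80). Of the 6552 genes of this class with at least 100 UMIs, 151 had a higher ratio than Tcf12 and 59 a higher one than Id3. With the marker gates Tcf12 was at 0.13 and Tcf4 at -0.30.

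Id2 RNA sat in few cells, unlike that of the E protein genes. To compare cells of unequal depth, each was thinned to 10000 UMIs, which left 151 WT and 179 KO lymphoid-primed cells. An Id2 UMI was then found in 15.2% of WT cells (9.91% to 22.0%) and 25.7% of KO cells (19.5% to 32.8%), and without thinning in 22.3% and 36.9%. The intervals of the thinned shares overlapped. Erythroid-primed cells give the share that free RNA could leave: they were at least as deep (median of 34198 UMIs in WT and 22514 in KO against 28726 and 18900 in lymphoid-primed cells) and had an Id2 UMI in 0.382% and 0.631% of thinned cells.

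The 15 thinned WT cells richest in Id2 (of 151) held 84.6% of its UMIs, and the 18 richest KO cells (of 179) 76.4%. As many cells ranked by Tcf4 held 30.4% and 31.6% of the Tcf4 UMIs. Cells with at least 5 Id2 UMIs after thinning numbered 2 of 151 in WT (1.32%) and 9 of 179 in KO (5.03%), and a positive cell carried 2.26 and 3.04 UMIs on average. Without thinning the richest WT cell had 28 Id2 UMIs and the richest KO cell 26. Without thinning a positive cell carried 4.17 Id2 UMIs in WT and 4.06 in KO. These values describe the readout that chose the genes, with few cells behind them. Tcf3 and Tcf4 were found in about as many thinned cells of each library (65.6% and 60.9%, and 62.9% and 61.5%), Tcf12 in 29.8% and 36.3%, Id1 in 7.28% and 11.7%, and Id3 in 8.61% and 10.1%.

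**Figure D3:**
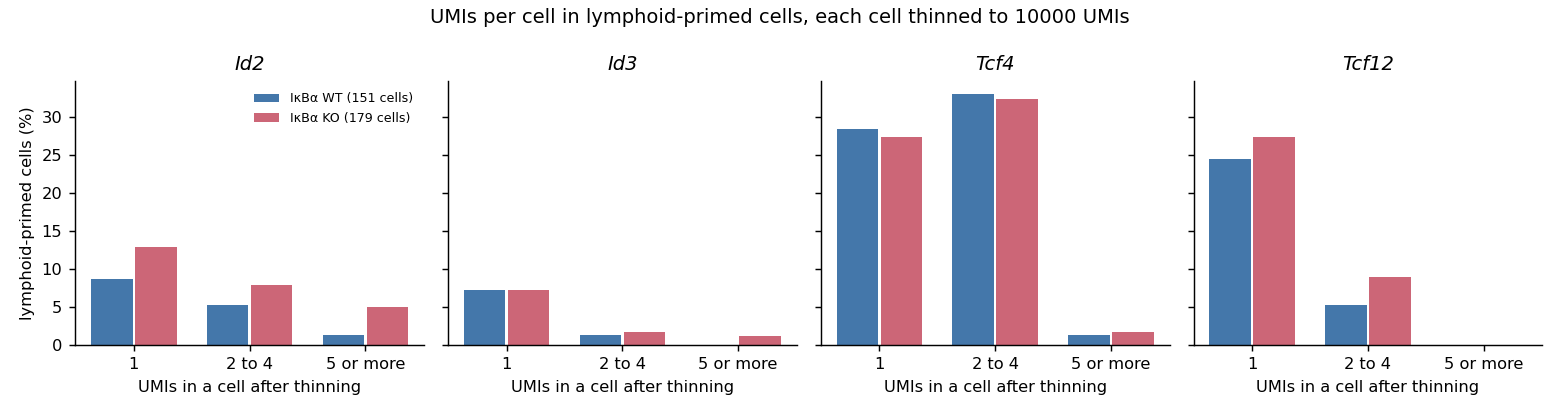
Share of lymphoid-primed cells (percent) with 1, 2 to 4, or 5 or more UMIs of Id2, Id3, Tcf4 and Tcf12 after thinning each cell to 10000 UMIs, in 151 WT (blue) and 179 KO (red) cells. For Id2 the KO bars are higher in all 3 bins, up to 5.03% against 1.32% of cells with 5 or more UMIs, and for Tcf4 the libraries are within a few percentage points in each bin.

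The cells with Id2 differed in their other genes from the rest of the class. Cells with a UMI of Ebf1, a B-lineage factor, numbered 57 in WT and 75 in KO and had little Id2, at 2.20 CPM (4 UMIs) and 10.5 CPM (16 UMIs). The 100 WT and 120 KO cells without Ebf1 stood at 51.8 and 119 CPM, a log2 ratio of 1.20 (0.90 to 1.502). The share of cells with Ebf1 was similar in both libraries after thinning, at 29.1% and 30.2%.

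Tcf7, which encodes the T-lineage and innate lymphoid factor TCF1, marked the cells richest in Id2. It and the genes Cd74 and Ly6d were picked for such splits after their values had been seen. The 10 WT and 23 KO cells with a Tcf7 UMI had 206 and 301 CPM of Id2, and held 41.8% and 50.3% of all Id2 UMIs of the class. Such cells were more frequent in KO: 3.97% (1.47% to 8.45%) of thinned WT and 10.6% (6.51% to 16.1%) of thinned KO cells, with intervals that overlapped. Cells without a Tcf7 UMI still differed, at 19.9 CPM in WT against 43.2 CPM in KO, a log2 ratio of 1.11 (0.72 to 1.52).

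Cells with Cd74, a class II antigen presentation gene of dendritic cells and B cells, had 158 CPM of Id2 in WT (11 cells) and 182 CPM in KO (21 cells), a log2 ratio of 0.20 (-0.38 to 0.80). The remaining cells were at 24.4 and 64.5 CPM (1.40, 1.06 to 1.75). Leaving out cells with either Tcf7 or Cd74 gave a log2 ratio of 1.03. Ly6d, a gene of plasmacytoid dendritic and early B cells, had 3 UMIs in WT and 136 in KO, but its 15 KO cells held only 5 Id2 UMIs, and without Ly6d-positive cells the ratio of Id2 was 1.31. Of the Id3 UMIs, 6 of 50 in WT fell in 2 Ly6d-positive cells and 13 of 65 in KO in those 15 cells. The Id3 log2 ratio was 1.00 in cells with Ebf1 (0.25 to 1.78) and 0.12 in cells without (-0.76 to 1.00).

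Cells with and without Mpo, a myeloid granule gene, were both higher in KO for Id2: 21.0 and 58.3 CPM with Mpo (log2 ratio 1.48), and 84.3 and 126 CPM without (0.58, 0.14 to 1.03). In cells with no UMI of Elane, Mpo or Irf8 the log2 ratio was 0.50 (-0.0084 to 1.02). Splits by Flt3 or Il7r gave log2 ratios between 1.12 and 1.26 on each side. A UMI of a split gene was found more easily in the deeper WT cells, so these subsets were not matched between the libraries. Female cells alone gave 1.26 for Id2, and the 23 male KO cells stood at 91.7 CPM.

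**Figure D4:**
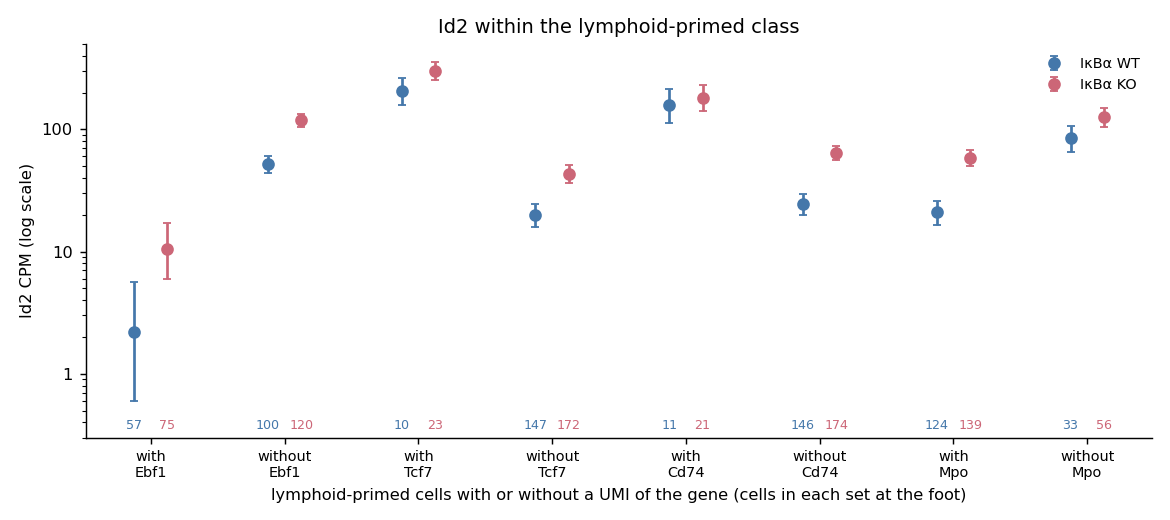
Id2 level (CPM, log scale) of lymphoid-primed cells with and without a UMI of Ebf1, Tcf7, Cd74 or Mpo in WT (blue) and KO (red), with 95% Poisson counting intervals and the number of cells at the foot. Id2 is lowest in cells with Ebf1 (2.20 and 10.5 CPM) and highest in cells with Tcf7 (206 and 301 CPM). The subsets split the same cells and the value that chose the genes, so they are no repeats of it. In cells with Cd74 the interval of the log2 ratio includes 0 (-0.38 to 0.80).

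Some summed marker lists of other cell types differed between the libraries in this class, in both directions. The summed innate lymphoid and natural killer list stood at 68.0 CPM in WT against 86.9 CPM in KO (log2 ratio 0.35), with Ncr1, Tbx21, Eomes and Il18r1 at 0 in both libraries. Not all of its members were higher in KO: Klrd1 was at 4.61 and 2.60 CPM. Monocyte and dendritic markers were at 91.5 and 127 CPM (0.47), plasmacytoid dendritic markers at 234 and 283 CPM (0.28), B-cell markers at 266 and 304 CPM (0.19) and T-cell markers at 503 and 547 CPM (0.12). Within the plasmacytoid dendritic list Ly6d differed most, at 0.658 and 35.4 CPM, and Ccr9 alone was lower, at 75.2 and 61.1 CPM. Summed megakaryocyte markers were lower in KO, at 67.6 and 54.1 CPM (-0.32), as were summed endothelial markers, at 425 and 349 CPM (-0.28). Not all members went that way. The endothelial sum was mostly Egfl7 (408 and 322 CPM), and Pecam1 was higher in KO (12.9 and 24.2 CPM). In the megakaryocyte list Pf4 was higher in KO (8.77 and 14.6 CPM). The class's own list was at 1567 and 1696 CPM (0.11), and the sum of the neutrophil markers was lower in KO, at 673 and 466 CPM (-0.53). That sum was mostly Mpo (403 and 290 CPM) and Prtn3 (262 and 156 CPM). Its other markers were scarce, at 13.5 CPM or less, and those detected had higher values in KO. Their part in the Id2 difference was not tested beyond the subsets above. Hepatocyte markers, which these cells should lack, were at 67.6 and 99.4 CPM (0.56). Hepatocyte-like cells also had the highest WT level of Id2, and their own Id2 was lower in KO, at 205 CPM in WT against 170 CPM in KO.

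In LT-HSC-like cells Id1 and Id3 stood higher in the KO library by more than the counting error. Id3 was at 44.7 CPM in WT (38.7 to 51.4, 198 UMIs) and 70.6 CPM in KO (61.1 to 81.2, 197 UMIs), a log2 ratio of 0.66 (0.37 to 0.95). Id1 was at 33.4 CPM (28.3 to 39.3) and 50.2 CPM (42.2 to 59.2), a log2 ratio of 0.59 (0.24 to 0.93). Neither gene's intervals overlapped between the libraries. Id2 was scarce, with 47 UMIs in WT and 37 in KO and a log2 ratio of 0.32 (-0.34 to 0.97). With the marker gates (265 WT and 298 KO cells) the log2 ratio was 0.12 for Id3 (-0.16 to 0.41) and 0.32 for Id1 (0.05 to 0.58). Hepatocyte markers, which these cells should lack, were at 93.5 and 163 CPM in the class (0.81, 0.61 to 1.00). The class's own marker list was at 684 and 652 CPM (-0.07, -0.15 to 0.02). Within it Hlf was lower in KO, at 229 and 179 CPM (-0.36, -0.51 to -0.20). Their part in the Id differences was not tested.

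The differences were not the same at all depths. KO LT-HSC-like cells had a median of 8653 UMIs against 12748 in WT, and in both libraries the shallower cells had higher Id1 and Id3 CPM. Cells under 10000 UMIs (77 WT and 205 KO) had 61.2 CPM of Id3 in WT and 98.8 CPM in KO, and 41.4 and 64.5 CPM of Id1, log2 ratios of 0.69 (0.16 to 1.25) and 0.64 (-0.0055 to 1.34). Cells with at least 10000 UMIs (244 WT and 98 KO) had 42.1 and 38.4 CPM of Id3 and 32.2 and 33.8 CPM of Id1. In that deeper part the log2 ratios were -0.13 (-0.62 to 0.33) for Id3 and 0.07 (-0.46 to 0.58) for Id1, and after thinning those cells to 10000 UMIs they were -0.09 and -0.15. The part of depth in the difference was not tested further.

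The E protein genes of LT-HSC-like cells had lower values in KO. Tcf3 was at 87.0 and 73.8 CPM (log2 ratio -0.24, -0.49 to 0.01), Tcf4 at 86.1 and 73.1 CPM (-0.24, -0.49 to 0.01), and Tcf12 at 45.2 and 42.7 CPM (-0.08, -0.42 to 0.25). None of the 3 intervals left out 0. Among cells with at least 10000 UMIs, Tcf4 was at 82.7 CPM in WT against 57.6 CPM in KO, and that interval did (-0.52, -0.90 to -0.15).

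In MPP3-like cells Id2 was lower in KO, the opposite direction to lymphoid-primed cells, and the difference between the classes was not tested. It stood at 48.3 CPM in WT (44.4 to 52.5, 561 UMIs) and 31.2 CPM in KO (27.7 to 35.02, 289 UMIs), a log2 ratio of -0.63 (-0.84 to -0.42). Id3 was at 45.4 and 36.4 CPM (-0.32, -0.52 to -0.12), Tcf12 at 35.1 and 28.1 CPM (-0.32, -0.55 to -0.10) and Tcf3 at 75.4 and 67.3 CPM (-0.17, -0.32 to -0.02). Id1 did not differ by more than its counting error, at 67.5 and 71.2 CPM (0.08, -0.08 to 0.23), nor did Tcf4, at 54.4 and 49.99 CPM (-0.12, -0.30 to 0.05). The share of thinned cells with an Id2 UMI was alike, at 14.6% in WT and 14.1% in KO. Hepatocyte markers were at 62.9 and 131 CPM in this class (1.055, 0.92 to 1.19), and their part was not tested.

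At resolution 1.0 the same class split in 3 parts that differed far more in Id2 than the libraries did. Monocyte/dendritic-like cells (181 WT and 167 KO) had 69.9 and 54.7 CPM of Id2, neutrophil-primed cells (84 and 116) had 5.63 and 5.78 CPM, and mast/basophil-like cells (58 and 84) had 32.4 and 16.9 CPM. The monocyte/dendritic-like part made up 56.0% of the class in WT and 45.5% in KO. Within that part the log2 ratio of Id2 was -0.35 (-0.58 to -0.13), in the neutrophil-primed part 0.04 (-1.04 to 1.12) and in the mast/basophil-like part -0.94 (-1.60 to -0.30). Elane, a neutrophil granule protease gene, was at 66.9 CPM in the WT monocyte/dendritic-like part and at 2857 CPM in the WT neutrophil-primed part, and Irf8, a monocyte and dendritic factor, at 235 and 51.4 CPM.

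Id3 followed the same parts: 74.1 and 66.8 CPM in monocyte/dendritic-like cells (-0.15, -0.36 to 0.06), 6.58 and 11.8 CPM in mast/basophil-like cells, and in neutrophil-primed cells 0 UMIs in WT, which allows up to 1.06 CPM, against 22 UMIs or 7.48 CPM in KO. Id1 was spread more evenly, at 74.2, 68.6 and 40.1 CPM in the 3 WT parts, and was higher in KO in the mast/basophil-like part alone among these intervals (64.0 CPM, log2 ratio 0.68, 0.25 to 1.11). Tcf12 was lower in KO in the monocyte/dendritic-like part, at 36.1 and 25.4 CPM (-0.51, -0.84 to -0.18). Cpa3, a mast cell protease gene, was at 808 CPM in WT against 325 CPM in KO mast/basophil-like cells. Ms4a2, another gene of the mast/basophil marker list, was at 74.6 and 82.95 CPM (0.15, -0.19 to 0.49). These markers did not go together, and whether the cells of that part were alike between the libraries was not tested.

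The sex of the KO cells moved with the same genes. In MPP3-like KO cells, the 80 male cells had 15.5 CPM of Id2 and 9.94 CPM of Id3, and the 247 female cells 36.3 and 41.3 CPM. Id1 went the other way, with 90.0 CPM in male and 62.8 CPM in female cells. With female cells alone the log2 KO/WT ratio was -0.22 (-0.46 to 0.01) for Id2 and -0.09 for Id3. The WT side of this ratio moved too: Id2 was at 48.3 CPM in all 323 WT cells and at 42.3 CPM in the 309 female ones. The shift therefore did not come from the male KO cells alone. Male cells come from other embryos than female cells, so sex and embryo cannot be told apart. With the marker gates, which keep neutrophil-primed cells, Id3 was higher in KO (1.06, 0.36 to 1.802), and Id2, with 19 and 30 UMIs, had a log2 ratio of 0.72 (-0.15 to 1.63).

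**Figure D5:**
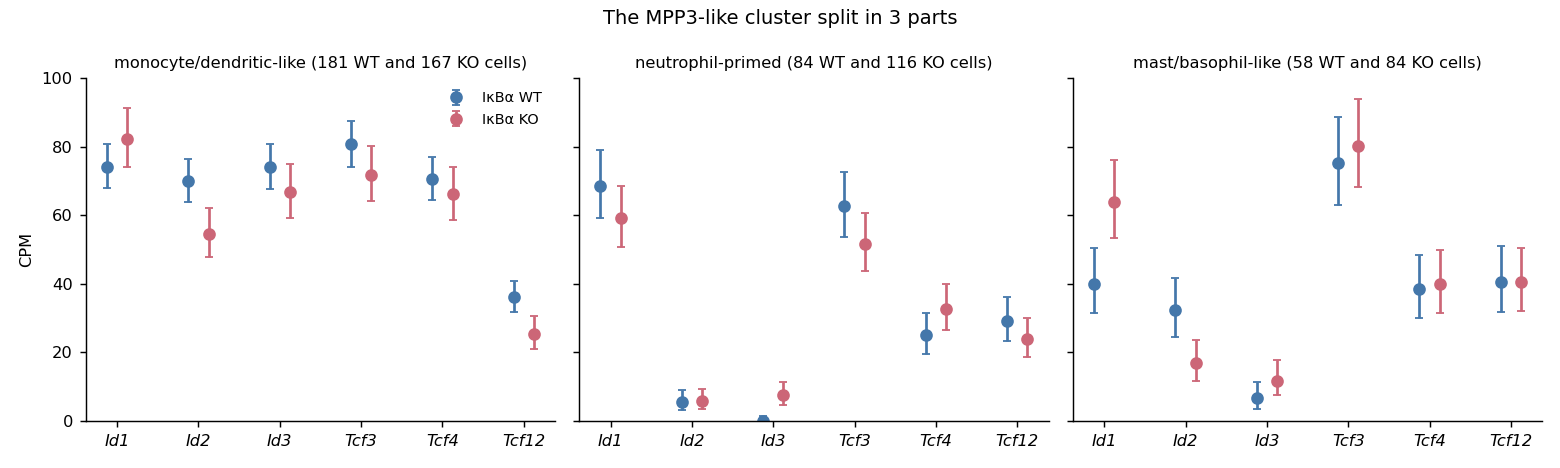
Level (CPM, linear scale) of the 6 genes in the 3 parts into which the MPP3-like class split at resolution 1.0, in WT (blue) and KO (red), with 95% Poisson counting intervals. Id2 and Id3 are at 69.9 and 74.1 CPM in WT monocyte/dendritic-like cells and near 0 in neutrophil-primed cells, whereas Id1 is at 40.1 CPM or more in all 3 parts of both libraries.

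In erythroid-primed cells, the class with the most cells, none of the 4 genes with at least 100 UMIs had a log2 ratio further than 0.1 from 0. Tcf3 was at 113 CPM in WT against 108 CPM in KO (log2 ratio -0.06, -0.11 to -0.01), Tcf12 at 31.0 and 32.2 CPM (0.06, -0.04 to 0.15), Tcf4 at 23.1 and 23.7 CPM (0.04, -0.08 to 0.15) and Id1 at 12.7 and 11.9 CPM (-0.09, -0.25 to 0.06). Each E protein gene had at least 1242 UMIs per library here, and all 3 intervals leave out log2 ratios above 0.15 and below -0.11. Id2 and Id3 had 34 to 46 UMIs per library in this class, too few to compare closely.

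Outside the progenitors, Id2 and Id3 were higher in KO in macrophage-like cells (49 WT and 103 KO cells), at 114 and 173 CPM (log2 ratio 0.60, 0.37 to 0.84) and 129 and 160 CPM (0.31, 0.08 to 0.54). In hepatocyte-like cells (33 and 69) both were lower, Id2 at -0.27 (-0.48 to -0.06) and Id3, from 30.4 to 16.9 CPM, at -0.85 (-1.48 to -0.23). Endothelial-like cells (68 and 89), where Id3 was most abundant, gave log2 ratios from -0.22 to -0.10 for the 3 Id genes, and 0.26 for Tcf4 (-0.0038 to 0.52). Megakaryocyte-like cells had 2 Id3 UMIs in 39 WT cells and 36 in 83 KO cells, and these 36 lay in 9 cells. Hbb-bs, a haemoglobin gene, was at 1262 CPM in the WT and 7404 CPM in the KO cells of that class. None of these classes had more than 103 cells in a library.

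The balance of both families was read as the number of Id UMIs per E protein UMI. It was low in erythroid-primed cells, at 0.0846 in WT and 0.0821 in KO. In megakaryocyte-like cells it was also low, at 0.0667 in WT (18 Id UMIs) and 0.224 in KO (111 Id UMIs), a log2 ratio of 1.75 (1.00 to 2.50). That interval leaves out the spread between cells, and the 36 KO Id3 UMIs of this class lay in 9 of 83 cells. The balance was highest in endothelial-like cells, at 3.05 and 2.31. Between them lay lymphoid-primed cells (0.209 and 0.380), LT-HSC-like cells (0.407 and 0.707), MPP3-like cells (0.977 and 0.955), macrophage-like cells (1.53 and 2.08) and hepatocyte-like cells (2.47 and 1.93). The log2 KO/WT ratio of this balance was 0.86 (0.61 to 1.12) in lymphoid-primed cells, which holds the Id2 difference that chose the genes. In LT-HSC-like cells it was 0.80 (0.54 to 1.05), falling to 0.20 in cells with at least 10000 UMIs, 0.18 after thinning those and 0.23 with the marker gates, and in MPP3-like and erythroid-primed cells it was -0.03 (-0.18 to 0.11) and -0.04 (-0.20 to 0.11). In lymphoid-primed cells the E protein sum was almost equal, at 268 CPM in WT against 274 CPM in KO, and the Id sum was 55.9 and 104 CPM.

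Other genes of the pathway were counted by whether the counting interval of their log2 ratio left out 0, among genes with at least 20 UMIs over both libraries. In lymphoid-primed cells this held for 12.4% of all genes (725 higher and 509 lower in KO of 9955). Of the genes for partners of E proteins, 4 of 8 were past that mark, 2 in each direction, with a median of 0.07. Lmo4, an adaptor of the LIM-only family, was at 88.6 and 116 CPM (0.38), and Ldb1, which bridges LIM-only proteins, at 57.03 and 71.3 CPM (0.32). Lower in KO were Lyl1, a basic helix-loop-helix partner of E proteins, at 92.6 and 71.5 CPM (-0.37), and Lmo2, at 110 and 92.3 CPM (-0.25). In LT-HSC-like cells 1 of 8 partners was higher (Cbfa2t3, 0.24), against 9.07% of all genes in either direction, in MPP3-like cells Lmo4 was higher (0.44) and Cbfa2t3 lower (-0.21), against 14.6%, and in erythroid-primed cells 3 of 9 were higher and 1 lower, all within 0.13 of 0, against 22.9%.

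BMP signalling is a known inducer of Id genes, and genes of BMP and TGF-β signalling were counted as the next list. The shares past the mark lay near those over all genes in lymphoid-primed and MPP3-like cells. These are RNA counts of pathway genes, and whether signalling had a part in the Id differences was not tested. In lymphoid-primed cells 2 of the 17 measured genes were past the mark, against 12.4% of all genes, with a median of 0.08: the receptor gene Acvr2b was higher (7.02 and 11.4 CPM, 0.71) and the receptor gene Tgfbr2 lower (14.0 and 7.80 CPM, -0.85). In LT-HSC-like cells 1 of 17, the ligand gene Tgfb1, was past the mark, against 9.07% of all genes. It was lower (172 and 148 CPM, -0.21), with a median of -0.11 over the list. In MPP3-like cells 3 of 20 were lower, against 14.6% of all genes in either direction: the signal transducer Smad1 (-0.34), the inhibitor Smad7 (-0.47) and Tgfb1 (-0.12). In erythroid-primed cells 2 of 18 were lower, against 22.9% of all genes in either direction, Tgfb1 (-0.14) and Smad3 (-0.35).

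Lymphoid genes known to be under E protein control were measured for 17 of 20 in lymphoid-primed cells, with a median of 0.25 beside 0.02 over all genes. Past the mark were 5 genes higher in KO and 1 lower, against 12.4% of all genes in either direction. Among the 5 were the B-lineage factors Ebf1 (91.7 and 114 CPM, 0.32) and Pax5 (4.61 and 8.58 CPM, 0.90). The T-lineage factor Tcf7 (10.5 and 23.7 CPM, 1.17) and the Notch target Hes1 (9.87 and 22.1 CPM, 1.16) were also among them. The chemokine receptor gene Ccr9 was lower (75.2 and 61.1 CPM, -0.30). Ebf1 and Pax5 are also among the B-cell markers and Ccr9 among the plasmacytoid dendritic markers used above. In the other classes 5 to 8 of the 20 had 20 UMIs. Of 5 in LT-HSC-like cells none was past the mark, against 9.07% of all genes. Of 7 in MPP3-like cells Gfi1 was higher (0.31) and Hes1 lower (-2.09, from 32 to 6 UMIs), against 14.6%. Of 8 in erythroid-primed cells Vpreb1 (-1.60) and Cd79a (-1.87) were lower, at 1.10 CPM or less, against 22.9%.

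Immediate early genes, which cells switch on within minutes of a stimulus or of handling, were counted as a further list. In lymphoid-primed cells 3 of 15 were higher in KO (Fosb 1.16, Klf2 0.52, Klf6 0.88) and 2 lower (Egr1 -0.61, Ier3 -0.55), against 12.4% of all genes. In LT-HSC-like cells 4 of 14 were higher (Fos 0.56, Jun 0.38, Dusp1 0.73, Klf2 0.52) and 0 lower, against 9.07%. In MPP3-like cells 5 of 15 were higher, led by Fosb (0.64), and 3 lower, led by Nr4a1 (-1.46, from 31 to 9 UMIs) and Egr1 (-0.68), against 14.6%. In erythroid-primed cells 5 of 14 were higher, led by Fosb (0.55), and 0 lower, against 22.9%. Whether these genes had a part in the Id differences was not tested.

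Over the clusters with at least 30 cells in a library, 29 points in all, the genes whose log2 CPM followed each member most closely were Vat1, Tnfrsf1a and Bmpr2 for Id1 (Pearson's r of 0.93 for Vat1 and 0.92 for Bmpr2, a BMP receptor gene), Plekha1, Ifnar1 and Marcks for Id2 (0.95 for Plekha1), and Arhgap31, Man1c1 and Appl2 for Id3 (0.97 for Arhgap31). For the E protein genes they were Cfap298, Sf3b4 and Snu13 for Tcf3 (0.93 for Cfap298), Prkx, Ppp3ca and Vgll4 for Tcf4 (0.97 for Prkx), and Ktn1, Impad1 and Dicer1 for Tcf12 (0.92 for Ktn1). Among the members, Id1 and Id3 were correlated at 0.89, Id2 and Id3 at 0.87, Tcf4 and Tcf12 at 0.85, and Tcf3 and Id2 at -0.09. The points share libraries and differ in depth, and the coefficients describe which clusters express the genes.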

How the data were processed

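Single-cell RNA-seq was measured in 1 WT and 1 IκBα KO library of sorted fetal liver LSK cells. The authors deposited raw UMI counts for every barcode called as a cell, made with Cell Ranger 6.0.0 against GRCm38 (mm10), per the file headers and the submitters' processing notes. The annotation release is not given in the sources used here. Gene positions came from GENCODE vM21, which held 32235 of the 32285 gene IDs.

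Cells needed at least 1000 genes and no more than 20% mitochondrial UMIs. Scrublet in scanpy 1.11.5, at an expected rate of 5%, marked 3.90% of WT cells and 5.80% of KO cells as doublets, which were kept. Clustering used Seurat 5.3.0 in R 4.3.3 (scale factor 10000, 2000 variable genes, 20 components, 20 neighbours, resolution 0.5), without integration and without the 6 genes, the pathway lists, sex and cell cycle genes. A cluster took a name where its markers stood on average at least 0.5 (log2, pseudocount 5) above the other clusters and 0.5 above the next list, with at least 3 markers 1.5-fold up and no other list leading its 10 top genes. For the lymphoid-primed cluster the lead over lymphoid lineage lists was waived. This rule was settled after the clusters were seen, and class names can differ from the study's.

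UMIs were summed per class and library. Levels are CPM with exact Poisson intervals, log2 ratios of CPM have exact conditional intervals, and shares of cells have exact Clopper-Pearson intervals. The log2 ratio of the Id per E protein balance has an approximate interval, from a normal approximation on the UMI counts. All are at 95% and for counting error only (Python 3.11.15, numpy 2.4.6, scipy 1.17.1, matplotlib 3.10.9). A count of 0 allows up to 3 UMIs. Shares were taken after thinning cells to 10000 UMIs. With 1 library per genotype no p-value was computed. The ratio and interval functions were checked on simulated Poisson and binomial counts without added spread between cells. Clustering, naming, gates and thinning were not checked in this way.

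Named were the 6 members, list genes with at least 20 UMIs whose interval left out 0, the 3 genes most like each member over clusters (log2 CPM with pseudocount 1, genes with at least 200 UMIs) and Nfkbia. Of these, 1 list gene is not reported here. The members and lists were chosen with earlier results of these data known. Alternatives covered cell and doublet filters, resolution, variable genes, marker gates (at least 3 UMIs), scaling, thinning and female cells. The splits by Tcf7, Cd74 and Ly6d, by depth and by the parts of the MPP3-like class, and the removal of shared barcodes, were chosen after seeing the data.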

Additional observations from a re-analysis of the deposited data

Results flagged for a closer look

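Effects of opposite sign between classes were found for 3 genes, and none of these differences was tested. The log2 KO/WT ratio of Id2 was 1.25, the value that chose the genes, in lymphoid-primed and -0.63 in MPP3-like cells. That of Id3 was 0.66 in LT-HSC-like and 0.62 in lymphoid-primed cells and -0.32 in MPP3-like cells, and that of Tcf12 was 0.49 in lymphoid-primed and -0.32 in MPP3-like cells. The values changed with how the classes were drawn. Id2 in MPP3-like cells was between 0.038 and 0.72 under 3 alternatives. The 0.038 came from the neutrophil-primed part at resolution 1.0 (16 WT and 17 KO UMIs, -1.04 to 1.12). The 0.72 came from the marker gates (19 and 30 UMIs, -0.15 to 1.63), and neither interval left out 0. Id3 in MPP3-like cells was 1.06 with the gates. Id3 in lymphoid-primed cells was -0.0046 at resolution 1.0 and -0.13 with the gates.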

How the results depend on the processing

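No paired analysis was possible because WT and KO were 1 library each, and for the same reason no replicate could be left out. For lymphoid-primed cells, the log2 ratio of Id2, which chose the genes and is no sign of stability, lay between 0.70 and 1.40 over the alternatives that gave the class, lowest with the marker gates. The gates also gave -0.13 for Id3, -0.30 for Tcf4, 0.13 for Tcf12 and 0.30 for the Id per E protein balance. Id3 was 0.014 with the midpoint gene minimum and -0.0046 at resolution 1.0. Without Scrublet calls the balance was 0.25, in a class that then held 712 WT and 744 KO cells because another cluster took its name. Resolution 0.3 gave no lymphoid-primed and no LT-HSC-like class. In MPP3-like cells Id2 was 0.12 at resolution 0.3, where the class held 434 WT and 482 KO cells. It was 0.038 at resolution 1.0 and 0.72 with the gates, at 30 or fewer UMIs per library, and both intervals included 0. Id3 in MPP3-like cells was 1.06 with the gates. In LT-HSC-like cells thinning gave -0.15 for Id1 and -0.085 for Id3, and cells of at least 10000 UMIs without thinning -0.13 for Id3. The Id per E protein balance of that class ranged from 0.18 to 0.87. The causes were not tested. With genes of at least 20 UMIs in place of 100, the share of all genes at a log2 ratio of 0.5 or more was 13.9% (LT-HSC-like), 12.4% (lymphoid-primed), 9.90% (MPP3-like), 7.96% (erythroid-primed) and 11% (all kept cells). The depth limits Id1 and Id3 in lymphoid-primed cells, at 44 to 65 UMIs per library.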

Other observations

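Cluster 0, an unnamed cluster of 728 WT and 737 KO cells whose leading genes did not single out 1 class, had Id1 at 47.8 CPM in WT against 53.5 CPM in KO, a log2 ratio of 0.16 (0.01 to 0.31). Id2 was at 5.24 and 5.33 CPM and Id3 at 24.6 and 25.4 CPM, both within counting error. Its Id UMIs per E protein UMI were 0.387 in WT and 0.418 in KO, near the 0.407 of WT LT-HSC-like cells. Cluster 9, with 115 WT and 182 KO cells, had 113 and 121 CPM of Tcf3. Cluster 14 held 100 KO cells and no WT cell, with 65.0 CPM of Id3 and 24.7 CPM of Id2.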
